A study of Mus musculus with 8 samples.

Results

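The integrated stress response is described here through 10 of its genes in gastrocnemius muscle of aged mice labelled as control or as NOX4-deficient in muscle. These were the kinase genes *Eif2ak3* and *Eif2ak4*, the transcription factor genes *Atf4*, *Atf3*, *Atf5*, *Ddit3* and *Cebpb*, and the feedback genes *Ppp1r15a*, *Ppp1r15b* and *Trib3*. They were taken by gene name from a count table of 32390 rows, and *Ddit3*, which names 2 rows, stands for the row that holds counts, the other having 0. Of the 10 genes, 3 were lower in NOX4-deficient muscle and 0 were higher. *Atf3*, which encodes a stress-induced repressor and activator of transcription, fell from 20.5 ± 3.81 to 8.02 ± 3.38 CPM, that is, counts scaled to the size of each library (SD over n = 4 libraries per genotype). *Cebpb*, which encodes a partner of ATF4 on DNA, fell from 69.0 ± 13.6 to 31.4 ± 14.1 CPM. *Ppp1r15a*, which encodes GADD34, the inducible subunit of the eIF2alpha phosphatase, fell from 55.4 ± 10.3 to 27.9 ± 6.0 CPM. In 17 fits with other settings or 1 library left out, *Ppp1r15a* always passed. *Cebpb* failed in 8 of those fits and *Atf3* in 2. The kinase genes, *Atf5*, *Ddit3*, *Ppp1r15b* and *Trib3* did not pass the test. *Atf4* passed on its p-value, though not when most single libraries were left out, and fell short of the minimum fold change.

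Cells slow translation under stress by phosphorylating the alpha subunit of the initiation factor eIF2. The kinases PERK (*Eif2ak3*, unfolded proteins in the endoplasmic reticulum), GCN2 (*Eif2ak4*, uncharged tRNA), PKR (*Eif2ak2*, double-stranded RNA) and HRI (*Eif2ak1*, heme shortage and mitochondrial stress) each do so, and phosphorylated eIF2alpha lets the mRNA of ATF4 be translated while most others are not. ATF4 drives genes of amino acid supply and further transcription factors such as ATF3 and CHOP (*Ddit3*), and GADD34 and CReP (*Ppp1r15b*) guide protein phosphatase 1 back to eIF2alpha and end the response. In skeletal muscle the pathway is known from mitochondrial disease, fasting and disuse. The counts measure mRNA, and the phosphorylation of eIF2alpha and the amount of ATF4 protein were not part of these data. The study reports raised eIF2alpha phosphorylation and more CHOP and GADD34 protein in gastrocnemius of younger NOX4-deficient males. Those measures are of protein, and of younger mice than the ones sequenced here.

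The study crossed mice with floxed *Nox4*, the gene of a hydrogen peroxide-producing NADPH oxidase, to mice with Cre under the promoter of muscle creatine kinase, to ask how muscle NOX4 bears on stress responses in aging. Controls were *Nox4* fl/fl without Cre and NOX4-deficient mice were *Mck*-Cre;*Nox4* fl/fl, so that both genotypes carry the floxed alleles and the presence of Cre and the deletion cannot be told apart. All mice were males on a standard chow, aged 21 months by the labels, and the labels put all 8 libraries in batch 1. The *Mck* promoter is active in skeletal and, less so, in cardiac muscle fibers, so that *Nox4* stays intact in the vessels, fibroblasts and immune cells of the same tissue. Poly(A) RNA of whole muscle was sequenced in unstranded libraries, 4 per genotype, which held 16350548 to 19804661 counts in controls and 16628305 to 19216987 in NOX4-deficient muscle. The labels number the libraries and do not name the animals, and p-values measure the spread between these libraries.

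*Nox4* itself had 85, 48, 35 and 70 counts in controls 1 to 4 and 29, 43, 42 and 37 in NOX4-deficient libraries 1 to 4. Its level was 3.27 ± 1.42 CPM in controls and 2.07 ± 0.220 CPM in NOX4-deficient muscle, a difference of -1.19 CPM that did not pass an exact two-sided permutation test (p = 0.2; the smallest p this design allows is 0.0286). Of the 4 NOX4-deficient libraries, 1 lay below the lowest control. The genotypes below therefore rest on the labels. The counts cover the whole gene, including parts that Cre does not remove and cells in which it is not active. As a check of the tissue, the 10 skeletal muscle fiber markers summed to 139275 to 176680 CPM in controls and 147701 to 183013 CPM in NOX4-deficient muscle, and none of them was called.

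Calls required both an adjusted p-value under 0.05, from the quasi-likelihood test of edgeR with Benjamini-Hochberg adjustment over 12725 rows, and an absolute log2 fold change over 0.5. Fold changes are NOX4-deficient over control. All 10 genes passed the filter on low counts. By this rule 6.16% of all rows tested were called, 3.48% lower and 2.68% higher, against 3 of the 10 genes (30%), all lower. Without a minimum fold change 7.75% of all rows and 4 of the 10 genes passed, the fourth being *Atf4*. The 4 libraries of one genotype lay wholly apart from those of the other in 16.2% of all rows and in 5 of the 10 genes (*Atf4*, *Atf3*, *Cebpb*, *Ppp1r15a* and *Ppp1r15b*). The median log2 fold change was -0.38 over the 10 genes, 7 being below 0, and 0.01 over all rows. In whole muscle, fewer cells of a type and less RNA per cell cannot be told apart.

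**Figure D1:**
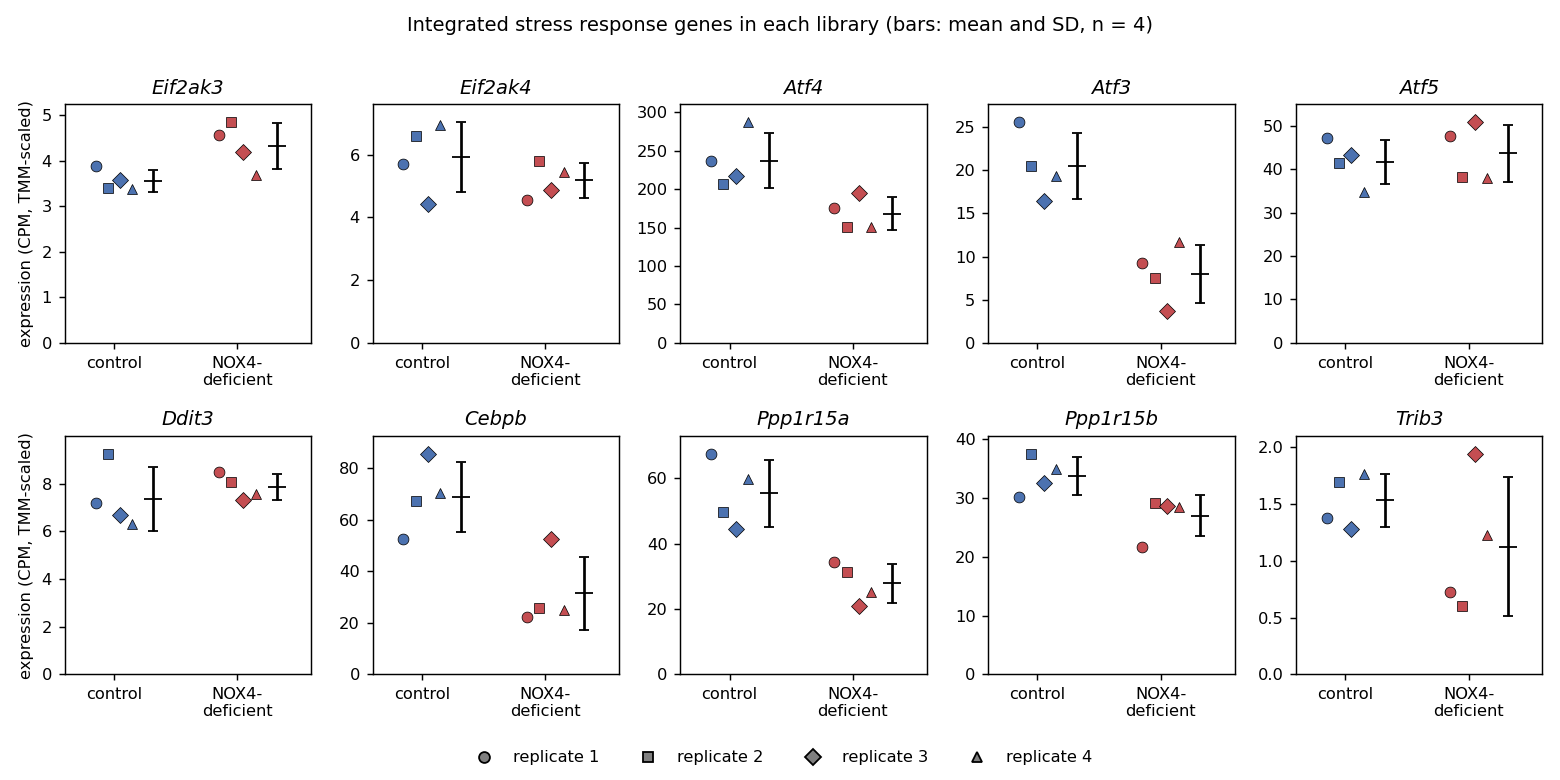
Expression of the 10 integrated stress response genes in each library, in CPM scaled by TMM, for 4 control and 4 NOX4-deficient libraries. Marker shapes give the replicate number, and the labels do not say whether it links animals across genotypes. The bars give the mean and SD. The genotypes do not overlap in *Atf4*, *Atf3*, *Cebpb*, *Ppp1r15a* and *Ppp1r15b*.

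ATF4 and its partners act through short elements near the starts of genes. The stretches of DNA before the start sites of the 3 called genes, all lower, are therefore shown. Each holds 250 bases upstream of the RefSeq start site in the mouse assembly GRCm38.p6, read 5′ to 3′ on the strand of the gene. The reads were aligned to GRCm39 by the submitters' processing notes, so the positions do not carry over. The *Atf3* window is chr1:191183334-191183583 (minus strand), the *Ppp1r15a* window chr7:45526269-45526518 (minus strand) and the *Cebpb* window chr2:167688665-167688914 (plus strand). Capitals mark matches to the motifs searched on both strands.
Atf3: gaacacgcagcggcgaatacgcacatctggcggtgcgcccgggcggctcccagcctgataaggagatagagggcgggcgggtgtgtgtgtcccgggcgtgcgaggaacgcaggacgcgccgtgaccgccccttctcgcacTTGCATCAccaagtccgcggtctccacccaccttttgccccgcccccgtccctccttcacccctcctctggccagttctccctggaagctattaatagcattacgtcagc
Ppp1r15a: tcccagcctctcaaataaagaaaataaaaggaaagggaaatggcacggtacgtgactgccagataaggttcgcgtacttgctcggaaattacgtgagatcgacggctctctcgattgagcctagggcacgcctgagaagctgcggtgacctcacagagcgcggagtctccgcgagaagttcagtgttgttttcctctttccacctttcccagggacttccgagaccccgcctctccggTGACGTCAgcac
Cebpb: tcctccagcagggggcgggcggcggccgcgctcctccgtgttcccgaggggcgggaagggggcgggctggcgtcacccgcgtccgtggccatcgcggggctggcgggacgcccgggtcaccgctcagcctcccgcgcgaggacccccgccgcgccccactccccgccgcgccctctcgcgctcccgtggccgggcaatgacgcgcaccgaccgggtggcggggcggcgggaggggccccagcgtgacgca

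The *Atf3* window held 1 match to the C/EBP-ATF element TGATGNAA, the composite site of C/EBP and ATF proteins. On the strand of the gene it reads TTGCATCA, with the first base at -110 from the start, and on the opposite strand TGATGCAA. This motif occurred in 3.45% of 32851 upstream windows of the same length. The *Ppp1r15a* window held 1 match to the cyclic AMP response element TGACGTCA, a palindrome, at -12, which occurred in 1.55% of windows. The *Cebpb* window held no match. Of the other genes, *Eif2ak3* held TGATTCA at -185 and *Ddit3* TGACTCA at -242, both matches to the AP-1 motif TGANTCA (6.75% of windows). The antioxidant motif TGACNNNGC (10.2%) and the E-box CACGTG (6.02%) matched in none of the 11 windows of the 9 genes found in the RefSeq table. The matches describe letters and no binding was measured.

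Of the 2 sensor kinases, neither was called. *Eif2ak3*, the gene of PERK, stood at 3.89, 3.39, 3.58 and 3.38 CPM in controls 1 to 4 and at 4.57, 4.85, 4.20 and 3.69 CPM in NOX4-deficient libraries 1 to 4. NOX4-deficient libraries 1, 2 and 3 lay above every control, while library 4 lay within the control range. The log2 fold change was 0.28 (SE 0.17, 95% interval -0.08 to 0.65, adjusted p = 0.344). *Eif2ak4*, the gene of GCN2, stood at 5.69, 6.58, 4.44 and 6.96 CPM in controls and at 4.57, 5.81, 4.88 and 5.45 CPM in NOX4-deficient muscle. The genotypes overlapped almost wholly, with a log2 fold change of -0.19 (SE 0.18, 95% interval -0.58 to 0.19, adjusted p = 0.565). Both kinase genes rested on 63 to 134 counts per library. The log2 ratio of *Eif2ak3* to *Eif2ak4* was -0.71 ± 0.34 in controls and -0.26 ± 0.23 in NOX4-deficient libraries, a difference of 0.45 that did not pass an exact two-sided permutation test (p = 0.0857, and 0.0857 adjusted over the 3 ratios tested).

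*Atf4*, the transcription factor at the center of the response, was the most abundant of the 10 genes. It stood at 237, 206, 216 and 287 CPM in controls and at 175, 151, 195 and 150 CPM in NOX4-deficient muscle. The highest NOX4-deficient library, number 3, lay below the lowest control, so the genotypes did not overlap. The mean went from 237 ± 35.9 to 168 ± 21.6 CPM, with a log2 fold change of -0.49 (SE 0.13, 95% interval -0.77 to -0.22, adjusted p = 0.0354). This fold change fell just short of the minimum of 0.5, and *Atf4* was not called. It was called in 3 of 17 alternative fits (without NOX4-deficient library 3, without control 2, and with odd and even replicates as a term). Over all 17 fits its log2 fold changes lay between -0.56 and -0.39, with adjusted p-values of 0.00601 to 0.0985. In 6 of the 8 fits with 1 library left out the adjusted p-value rose above 0.05, to between 0.0635 and 0.0985.

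*Atf3*, an early responder to many stresses, had the largest fold change of the 10 genes. It stood at 25.6, 20.5, 16.5 and 19.3 CPM in controls and at 9.20, 7.48, 3.68 and 11.7 CPM in NOX4-deficient muscle. All NOX4-deficient libraries lay below all controls, and their spread was wide, library 3 holding 0.388 times the mean of the other 3. The log2 fold change was -1.36 (SE 0.28, 95% interval -1.97 to -0.74, adjusted p = 0.0175), that is, controls held 2.56 times as much. The call was lost without NOX4-deficient library 2 (adjusted p = 0.0583) and with no filter on low counts (0.0554). The log2 ratio of *Atf3* to *Atf4* was -3.54 ± 0.32 in controls and -4.50 ± 0.87 in NOX4-deficient muscle. The difference of -0.96 did not pass the exact permutation test (p = 0.0857), NOX4-deficient library 4 being the only one within the control range. Without that library the difference was -1.23 and the exact p 0.0286, which its removal fixes, since the rest do not overlap. Without each of the other libraries in turn the exact p was 0.0857 to 0.171.

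*Cebpb*, a basic leucine zipper factor that pairs with ATF4, stood at 52.5, 67.3, 85.6 and 70.4 CPM in controls and at 22.3, 25.8, 52.5 and 25.0 CPM in NOX4-deficient muscle. Libraries 1, 2 and 4 were far below the controls, whereas library 3 held 2.15 times their mean and lay only just under the lowest control. The fitted log2 change was -1.13 (SE 0.27, 95% interval -1.73 to -0.54, adjusted p = 0.0305). This call was lost in 8 of 17 alternative fits, among them those without NOX4-deficient library 1, 2 or 4 or control 2, 3 or 4, in which adjusted p-values ran up to 0.0973, and the fit with no filter (0.119). The fold change stayed between -1.49 and -0.99 on the log2 scale in all 17. *Cebpb* shares 20.7% of its exon bases with *Tmem189* on the opposite strand, and in unstranded libraries their reads cannot be told apart.

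The other 2 factors did not pass the test. *Atf5*, which encodes the factor of the mitochondrial unfolded protein response, stood at 47.1, 41.4, 43.2 and 34.8 CPM in controls and at 47.7, 38.2, 50.8 and 37.9 CPM in NOX4-deficient muscle. This left a log2 fold change of 0.07 (SE 0.13, 95% interval -0.21 to 0.35, adjusted p = 0.802). *Ddit3*, the gene of the pro-apoptotic factor CHOP, stood at 7.19, 9.26, 6.68 and 6.29 CPM in controls and at 8.47, 8.08, 7.30 and 7.56 CPM in NOX4-deficient muscle. The fitted change on the log2 scale was 0.09 (SE 0.15, 95% interval -0.24 to 0.43, adjusted p = 0.767). The genotypes overlapped in both genes, and the intervals exclude changes as large as those of *Atf3* or *Ppp1r15a*.

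**Figure D2:**
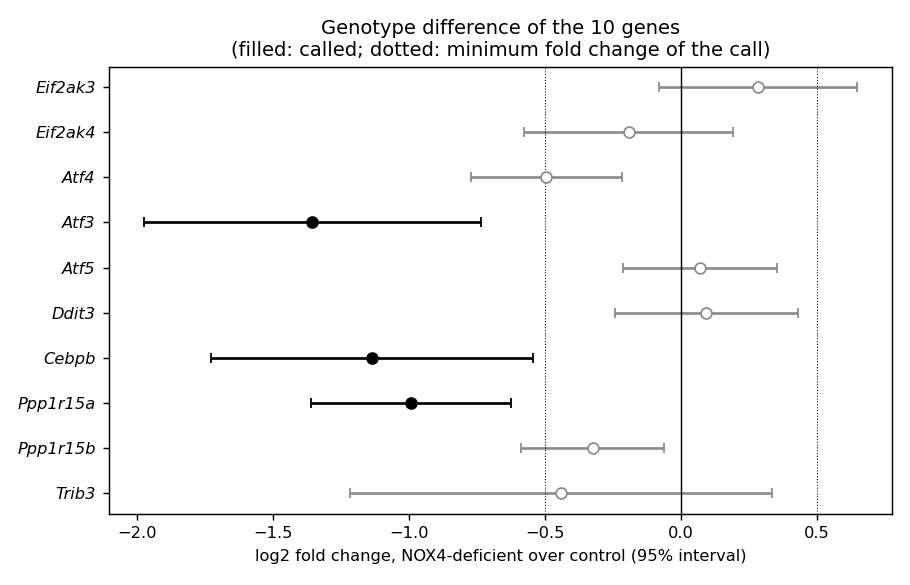
Log2 fold change of each of the 10 genes, NOX4-deficient over control, with its 95% interval from the edgeR fit. Filled points are called genes, and dotted lines mark the minimum log2 fold change of 0.5. *Atf3*, *Cebpb* and *Ppp1r15a* lie wholly left of the lower line, and *Atf4* (-0.49) lies next to it.

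*Ppp1r15a* had the smallest p-value of the 10 genes. It stood at 67.5, 49.7, 44.5 and 59.8 CPM in controls and at 34.3, 31.2, 20.9 and 25.1 CPM in NOX4-deficient muscle. The genotypes were well apart, the highest NOX4-deficient library lying below the lowest control. The log2 fold change was -0.99 (SE 0.17, 95% interval -1.36 to -0.62, adjusted p = 0.00529), so controls held 1.99 times as much. *Ppp1r15a* was called in all 17 alternative fits, with log2 fold changes from -1.09 to -0.86 and adjusted p-values no higher than 0.0157.

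*Ppp1r15b*, the gene of CReP, which serves the phosphatase in unstressed cells, moved less. It stood at 30.1, 37.6, 32.6 and 35.0 CPM in controls and at 21.8, 29.1, 28.6 and 28.5 CPM in NOX4-deficient muscle. The genotypes did not overlap, but NOX4-deficient libraries 2 to 4 came close to the lowest control. The fitted log2 change was -0.32 (SE 0.12, 95% interval -0.59 to -0.06, adjusted p = 0.131) and was not called. The log2 ratio of *Ppp1r15a* to *Ppp1r15b* was 0.70 ± 0.35 in controls and 0.03 ± 0.47 in NOX4-deficient muscle. The difference of -0.67 did not pass the exact permutation test (p = 0.0857), NOX4-deficient library 1 alone lying among the controls. It was -0.88 without that library, where the exact p of 0.0286 again follows from dropping the only overlapping library, and the exact p was 0.0857 to 0.171 without each of the others in turn.

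*Trib3*, which encodes a pseudokinase that restrains ATF4 and AKT, was rare, with 12 to 37 counts per library. It stood at 1.38, 1.70, 1.28 and 1.77 CPM in controls and at 0.721, 0.606, 1.94 and 1.23 CPM in NOX4-deficient muscle. NOX4-deficient libraries 1, 2 and 4 lay below every control and library 3 above every control. The fitted log2 change was -0.44 (SE 0.36, 95% interval -1.22 to 0.33, adjusted p = 0.504), an interval that covers both no change and a change as large as that of *Ppp1r15a*.

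**Figure D3:**
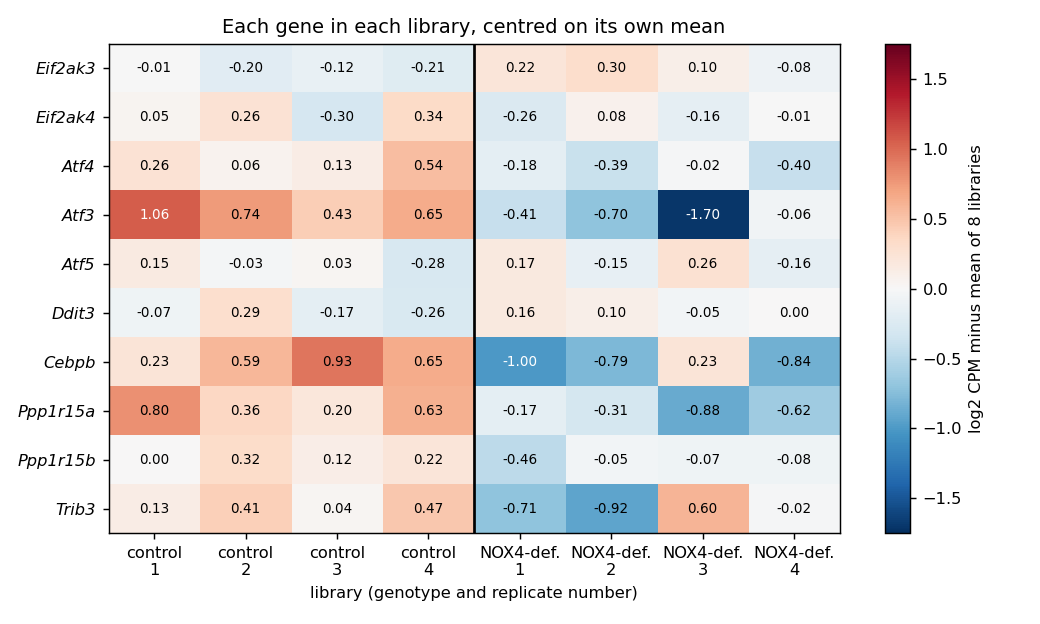
Deviation of each gene in each library from its own mean over the 8 libraries, in log2 CPM, with genes in rows and libraries in columns. In NOX4-deficient library 3, *Atf3* (-1.70) and *Ppp1r15a* (-0.88) are at their lowest while *Cebpb* (0.23) and *Trib3* (0.60) are above their means.

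The 10 genes did not move as a block within a genotype. Among NOX4-deficient libraries, library 3 was the lowest in *Atf3*, *Ppp1r15a* and *Ddit3* and the highest in *Atf4*, *Atf5*, *Cebpb* and *Trib3*. Library 1 was the lowest in *Cebpb* and *Ppp1r15b* and the highest in *Ppp1r15a*. Among controls, library 1 was the highest in *Atf3* and *Ppp1r15a*, and library 4 in *Atf4*, *Eif2ak4* and *Trib3*. The coefficient of variation in NOX4-deficient muscle was 6.71% for *Ddit3* and 54.1% for *Trib3*, the extremes of the 10 genes.

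Levels were compared between genes as CPM per kilobase of exon, with lengths from GENCODE vM21. In controls *Atf4* came first at 100.4 ± 15.2, followed by *Cebpb* at 45.8 ± 9.03, *Atf5* at 20.9 ± 2.57 and *Ppp1r15a* at 18.9 ± 3.51. *Atf3* followed at 9.5 ± 1.77, *Ppp1r15b* at 6.04 ± 0.572 and *Ddit3* at 4.29 ± 0.771. *Eif2ak4* (0.794 ± 0.150), *Trib3* (0.720 ± 0.111) and *Eif2ak3* (0.591 ± 0.0398) came last. The ranges over controls overlapped between *Atf5* and *Ppp1r15a*, between *Ppp1r15b* and *Ddit3*, and between neighbors among the last 3, so those orders are not resolved. Among the eIF2alpha kinases, HRI (*Eif2ak1*) was the most abundant at 10.7 per kilobase, with a log2 fold change of 0.02.

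**Figure D4:**
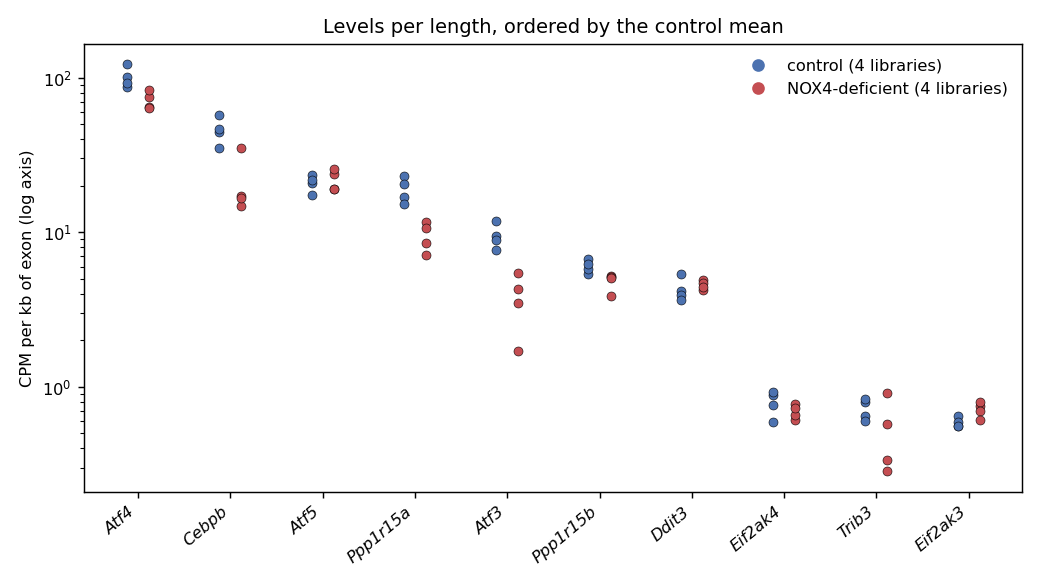
Level per kilobase of exon (CPM per kb, log axis) of the 10 genes in each of 4 control and 4 NOX4-deficient libraries, ordered by the control mean. *Atf4* leads at a control mean of 100.4 CPM per kb, and the kinase genes and *Trib3* lie below 1.

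The machinery around eIF2 was followed in 22 genes. They encode eIF2 and eIF2B subunits, other eIF2alpha kinases, catalytic phosphatase subunits, the GCN2 cofactors, the regulators *Dnajc3* and *Nck1*, the mitochondrial relay *Oma1* and *Dele1*, and the initiation factors *Eif5* and *Eif5b*. Of these, 15 lay below 0 and 7 above, with a median log2 fold change of -0.05. Only *Impact* was called (1 of 22, 4.55%), a share near the 6.16% of all rows. *Impact*, which encodes an inhibitor of GCN2 activation, fell from 39.9 ± 8.67 to 18.5 ± 3.22 CPM (log2 fold change -1.11, adjusted p = 0.00236), and its 4 NOX4-deficient libraries, at 15.7, 22.9, 16.6 and 18.7 CPM, lay below all controls. The most abundant of the list were *Ppp1cb*, a catalytic subunit of protein phosphatase 1, at 608 ± 27.3 and 607 ± 61.9 CPM, and *Eif2s2*, the beta subunit of eIF2, at 254 ± 12 and 250 ± 5.33 CPM.

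Among known ATF4 target genes, 55 were found in the table and 50 were tested. *Fgf21*, *Gdf15*, *Cbs*, *Slc7a11* and *Slc7a3* did not pass the filter on low counts. Of the genes tested, 34 lay below 0 and 16 above, with a median log2 fold change of -0.10. Of the 50, 6 were called (12%, against 6.16% of all rows), 5 lower and 1 higher. In 10 of the 50 the genotypes did not overlap (background 16.2%). Amino acid synthesis genes were split, with 6 of 13 below 0, 7 above and a median of 0.01. *Psph*, the last enzyme of serine synthesis, was the 1 gene called there (7.69%, near the share of all rows). It rose from 7.44 ± 1.45 to 11.2 ± 0.293 CPM (log2 fold change 0.59, adjusted p = 0.0361). The abundant transaminase genes *Gpt2* (477 ± 103 and 378 ± 35.0 CPM) and *Got1* (320 ± 36.0 and 246 ± 38.4 CPM) were not called.

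Of 8 amino acid transporter genes tested, 3 lay below 0 and 5 above, with a median of 0.17, and 1 was called (12.5%, against 6.16% of all rows). *Slc38a2*, the gene of the glutamine and alanine carrier SNAT2, stood at 269, 290, 244 and 302 CPM in controls and at 74.8, 115, 120 and 173 CPM in NOX4-deficient muscle. The genotypes were far apart, with a log2 fold change of -1.20 (SE 0.20, adjusted p = 0.00563). *Slc3a2* (33.1 ± 3.85 and 26.7 ± 4.82 CPM) and *Slc1a5* (12.5 ± 2.93 and 15.0 ± 3.67 CPM) were not called.

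All 12 tRNA synthetase and tRNA export genes tested lay below 0, with a median of only -0.10 and log2 fold changes from -0.59 to -0.00. Only *Eprs1*, which charges glutamate and proline tRNAs, was called (8.33%, near the 6.16% of all rows), at 284 ± 35.5 and 188 ± 20.8 CPM (log2 fold change -0.59, adjusted p = 0.0122). *Aars1* stood at 114 ± 10.7 and 108 ± 2.87 CPM and *Sars1* at 92.2 ± 6.84 and 86.2 ± 4.88 CPM. Over all rows 47.7% lay below 0.

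The other ATF4 targets, which act in translation control, growth restraint and cell death, held 13 genes below 0 and 4 above of 17 tested, with a median of -0.27. Of the 17, 3 were called (17.6%, against 6.16% of all rows). *Ddit4*, the gene of the mTORC1 inhibitor REDD1, fell from 113 ± 53.5 to 28.0 ± 8.39 CPM (log2 fold change -2.01, adjusted p = 0.0185). *Eif4ebp1*, whose product holds back the cap-binding factor eIF4E, fell from 63.6 ± 23.6 to 24.7 ± 4.82 CPM (log2 fold change -1.36, adjusted p = 0.00729). *Mknk2*, a kinase of eIF4E, fell from 414 ± 67.6 to 242 ± 3.28 CPM (log2 fold change -0.77, adjusted p = 0.00262). The most abundant genes of the list that were not called were *Hspa9*, the mitochondrial HSP70 chaperone, at 536 ± 25.1 and 444 ± 26.1 CPM (log2 fold change -0.27, adjusted p = 0.103), and *Vldlr*, a lipoprotein receptor, at 451 ± 80.1 and 315 ± 85.3 CPM (-0.52, adjusted p = 0.111).

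Among relatives of the 10 genes in the ATF, CREB and C/EBP families, 11 of 14 tested lay below 0 with a median of -0.24. Of these relatives 3 were called (21.4%, against 6.16% of all rows). *Nfil3*, a leucine zipper repressor, fell from 63.0 ± 15.2 to 19.1 ± 4.53 CPM (log2 fold change -1.72, adjusted p = 5.98e-04). *Cebpd*, another C/EBP factor, fell from 42.9 ± 18.2 to 11.5 ± 4.72 CPM (log2 fold change -1.89, adjusted p = 0.0184). *Atf6*, the membrane-bound sensor of a parallel arm of the unfolded protein response, fell from 52.3 ± 7.63 to 32.1 ± 7.97 CPM (log2 fold change -0.70, adjusted p = 0.0255). *Atf1* (67.2 ± 5.64 and 58.6 ± 4.22 CPM) and *Atf7* (40.5 ± 3.41 and 45.9 ± 9.93 CPM) were not called.

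**Figure D5:**
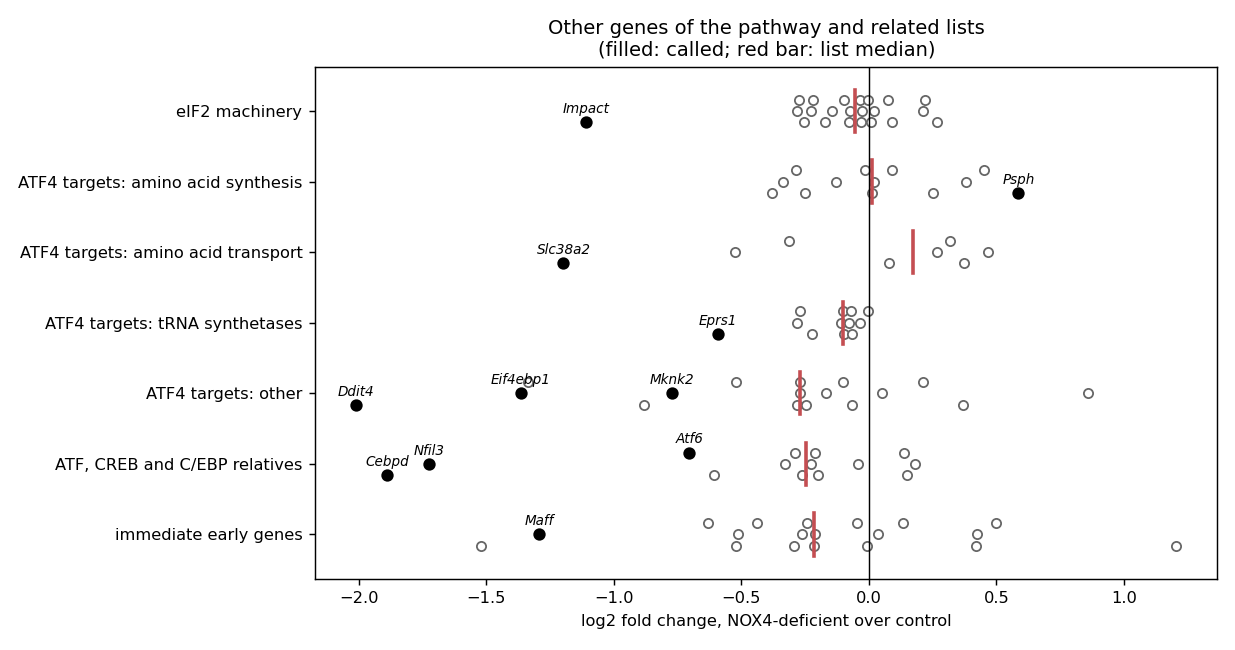
Log2 fold changes, NOX4-deficient over control, of the tested genes in 7 lists of related genes, each circle being 1 gene, with called genes filled and named and the list median as a red bar. *Ddit4*, *Cebpd*, *Nfil3*, *Eif4ebp1*, *Maff*, *Slc38a2* and *Impact* lie more than 1 below 0, while the list medians lie between -0.27 and 0.17.

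*Atf3*, *Ppp1r15a* and *Cebpb* also respond as immediate early genes, to handling and exercise, and to glucocorticoids and the time of day, so those lists are given beside them. Of 19 immediate early genes tested, 13 lay below 0 with a median of -0.22. Only *Maff* was called (5.26%, near the 6.16% of all rows), at 5.97 ± 0.620 and 2.44 ± 0.448 CPM (log2 fold change -1.29, adjusted p = 0.00185). *Jun* (log2 fold change -0.51, adjusted p = 0.0744) and *Nr4a1* (0.03, adjusted p = 0.931) were not called. Of 19 clock and glucocorticoid-responsive genes, 8 were called lower and 2 higher (52.6%, against 6.16% of all rows), with a median of -0.37. The clock gene *Per3* rose (5.82 ± 1.31 to 20.8 ± 4.67 CPM, log2 fold change 1.84), as did *Dbp* (log2 fold change 2.37), while the clock genes *Npas2* (-2.32) and *Arntl* (-1.94), the glucocorticoid-responsive *Zbtb16* (-1.98), *Fkbp5* (-1.71) and *Klf15* (-0.72), the ubiquitin ligases *Trim63* (-2.18) and *Fbxo32* (-1.62), and *Pdk4* (-1.54) fell. *Tsc22d3* (log2 fold change -0.42, adjusted p = 0.0340) fell short of the minimum fold change and *Tef* (0.17, adjusted p = 0.376) did not pass. The times of dissection are not given in the sources used here, and the part of these genes' inputs in the values of the 10 genes was not tested.

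Single markers of other cells in the muscle were called in 2 lists. Of 11 immune cell markers tested 10 lay below 0 and 2 were called lower (*S100a9*, log2 fold change -2.87, and *Cd163*, -1.29), that is, 18.2% against 3.48% of all rows. The immune list summed to 44.1 to 115 CPM in controls and 25.8 to 55.9 CPM in NOX4-deficient muscle, ranges that overlap. Of 3 blood markers 2 were called higher (*Hbb-bs*, 1.00, and *Hba-a1*, 1.24), that is, 66.7% against 2.68% of all rows, with sums of 47.5 to 52.7 and 72.2 to 159 CPM. The 7 slow-fiber markers all lay above 0 with a median of 0.66 and 0 were called, their sums being 293 to 639 and 385 to 1154 CPM. Of 7 adipocyte, 6 endothelial, 8 fibroblast and tendon, and 7 satellite cell and denervation markers tested, 0 were called, at medians of 0.32, 0.01, 0.50 and -0.13. None of the markers was at 0 in all libraries, and the part of these cells in the lower *Atf3*, *Cebpb* and *Ppp1r15a* was not tested.

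The genes whose centered log2 levels ran closest to each called gene over the 8 libraries were sought among 12715 others, by the mean absolute difference. For *Ppp1r15a* these were *Sdc4* (0.129), *Sbk2* (0.134) and *Mafk* (0.149). For *Atf3* they were *Agbl1* (0.209), *Hspb7* (0.250) and *Gm5420* (0.253), and for *Cebpb* they were *Vasn* (0.180), *E230001N04Rik* (0.221) and *Cyp26b1* (0.238).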

How the data were processed

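Gastrocnemius RNA of 4 control and 4 NOX4-deficient mice was sequenced as poly(A), unstranded, paired-end libraries. The table the authors deposited gives read counts by gene name, with no normalization. Their processing notes name STAR and GRCm39, the study's methods name an nf-core pipeline, and the annotation and counting settings are not given in the sources used here. Of 32390 rows, 11715 had no counts and 412 repeated an earlier name. All value columns matched a sample. The counts were fitted in edgeR 4.0.16 (R 4.3.3; TMM, filterByExpr, estimateDisp, robust glmQLFit, glmQLFTest) with a single genotype term and Benjamini-Hochberg adjustment over 12725 rows. The common biological coefficient of variation was 0.174. The study's own tool was a Python version of DESeq2, run here as an alternative (pydeseq2 0.5.4, beside DESeq2 1.42.0). CPM are scaled by TMM, errors are SDs, and SEs were derived from the F statistic. The log2 ratios (of counts, 0.5 added to each) and *Nox4* were compared by exact two-sided permutation tests. Alternatives changed the scaling (DESeq2 size factors, library size only), the filter (none, or at least 10 counts in every library), robustness, thresholds and added terms (replicate block, odd and even numbers), or left out 1 library at a time.

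The 10 genes and all lists were chosen with earlier results of these data known. All 10 genes and *Nox4* are named, as are in each other list up to 6 called genes with the smallest p-values and the 2 most abundant that were not called, and the 3 closest genes to each called gene. *Dbp*, *Arntl*, *Klf15*, *Pdk4* and the called cell markers were named after their values were seen. The 12 pairs of libraries of 1 genotype differed by more than sampling noise, with chi-square values of 13.5 to 56.4 per degree of freedom. Promoter windows and gene lengths come from RefSeq and GENCODE vM21 (GRCm38), a different build from that of the counts. *Cebpb*, *Ppp1r15b* (11.4%), *Eif2ak3* (8.05%), *Atf5* (4.11%), *Ddit3* (3.97%) and *Ppp1r15a* (0.409%) share exon bases with a gene on the opposite strand.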

Additional observations from a re-analysis of the deposited data

Results flagged for a closer look

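Of 28 groups of 4 libraries examined for 1 library far from the rest, 3 were picked out, where chance gives about 1.4. *Cebpb* in NOX4-deficient muscle was picked out because library 3 (52.5 CPM) stood above the other 3, its gap being 0.883 of the whole range. *Ppp1r15b* in NOX4-deficient muscle was picked out because library 1 (21.8 CPM) stood below the rest, with a gap of 0.914 of the range. *Nox4* in NOX4-deficient muscle was picked out because library 1 (1.74 CPM) stood below 3 nearly equal libraries, with a gap of 0.918 of the range.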

How the results depend on the processing

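*Ppp1r15a* was called in all 17 alternative fits, and the fold changes of the 10 genes kept their direction except that of *Atf5*, which was -1.41e-04 without NOX4-deficient library 3 and -0.0086 without control 4. With a stricter adjusted p-value of 0.01, 252 of all rows (784 at 0.05), 1 of the 10 genes, 3 ATF4 targets (6 at 0.05), 1 relative (3 at 0.05) and 6 of the immediate early and timed genes (11 at 0.05) were called. With no filter on low counts, 1 of the 10 genes was called. DESeq2 and pydeseq2 called 999 and 1009 rows and the same number of the 10 genes, 3. Leaving out each library in turn gave 499 to 712 calls over all rows, 1 to 4 of the 10 genes, 4 to 7 ATF4 targets, 1 to 3 relatives and 7 to 10 immediate early and timed genes. The fewest calls were made without control 4 (all rows), without NOX4-deficient library 2 (the 10 genes, and the timed genes) and without NOX4-deficient library 1 or control 4 (relatives). The log2 ratio of *Ppp1r15a* to *Ppp1r15b* then ranged from -0.88 to -0.51, that of *Atf3* to *Atf4* from -1.23 to -0.55 and the difference in *Nox4* from -1.66 to -0.59 CPM. Same-numbered libraries correlated at 0.22, 0.15, 0.04 and 0.04 in their deviations, which does not settle whether the numbers pair the mice. A fit with the replicate block called 933 rows and 3 of the 10 genes. Counts were low in *Trib3*, *Nox4* and the kinase genes, and with 4 libraries per genotype the exact tests cannot go below 0.0286. The causes of these shifts were not tested.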
